A study of Mus musculus with 12 samples.

Results

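Of 12 bulk RNA-seq libraries of mouse liver, 4 tumor libraries were set against each other, 2 carcinomas against 2 adenomas. The carcinomas were T-HCC941, with an Egfr mutation, and TCi-HCC981, with mutations of Hras and Rnf43. The adenomas were T-HCA992 and TCi-HCA984, chosen because the study found no Ctnnb1, Egfr, or Hras mutation in them. The rule for that choice used no measured value of expression, but the comparison was set with earlier results of these data known. Each side held 1 tumor of a p21+/Tert mouse (T-HCC941 and T-HCA992) and 1 of a p21+/TertCi mouse (TCi-HCC981 and TCi-HCA984). In p21+/Tert mice the promoter of Cdkn1a, the gene of the cell cycle inhibitor p21, drives Tert, the catalytic subunit of telomerase, together with mCherry. The p21+/TertCi mice carry a catalytically inactive Tert in its place. This promoter is not specific to hepatocytes, and every library, controls included, came from an aged mouse on Standard Diet with one of these alleles. The adenomas were not free of other mutations: TCi-HCA984 has one in Ep300, and T-HCA992 has frameshifts in Ppp1r9a and Ptpre. T-HCC941 also has a splice mutation in Ppp1r1a. Non-tumoral livers of 6 tumor-bearing mice, 4 p21+/Tert (labelled p_961, p_663, p_941, and NT_992) and 2 p21+/TertCi (L981_CI and L984_CI), served as a common reference, and 2 Ctnnb1-mutated carcinomas entered the model for the spread between libraries only.

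Each tumor is 1 animal, so the driver mutation, the histological class, and the animal cannot be told apart, and all statements on carcinomas or adenomas describe 2 tumors. Total counts ranged from 14571716 to 26170661 reads per library over 24421 gene symbols, of which 15182 passed the filter on low counts. Levels are given as CPM, the reads of a gene scaled to the TMM-adjusted size of its library, in the order T-HCC941, TCi-HCC981, T-HCA992, and TCi-HCA984 unless stated. The 10 most abundant genes took 19.6% to 21.7% of the reads in these 4 tumors against 12.4% to 17.1% in the livers. The 4 hepatocyte markers present in the files were detected in every library, and their sum lay between 63746 and 92928 CPM in the tumors against 25768 to 49766 in the livers.

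EGFR is a receptor tyrosine kinase at the hepatocyte surface, bound by ligands such as TGF-alpha, amphiregulin, HB-EGF, and betacellulin. Its signal passes through the RAS GTPases to the kinases RAF, MEK, and ERK, and ERK induces its own inhibitors, among them the DUSP phosphatases and the Sprouty proteins. Hepatocellular adenomas are benign tumors of hepatocytes that keep much of the liver's metabolic program, whereas carcinomas tend to lose zonated functions and to regain genes of the fetal liver.

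The carcinomas differed from the adenomas in no gene at an adjusted p under 0.05 (0% of 15182 genes, edgeR quasi-likelihood test with Benjamini-Hochberg adjustment), and the smallest adjusted p was 0.162. Over the other edgeR settings tried the smallest adjusted p ran from 0.0245 to 0.681. At an unadjusted p under 0.05, 650 genes (4.28%) were higher and 762 (5.02%) lower in the carcinomas. DESeq2 on the same counts called 65 genes higher (0.446%) and 58 lower (0.398%) of 14563 with an adjusted p. Both carcinomas lay above both adenomas in 2873 genes (18.9%) and below them in 3246 (21.4%), which is the background for every such count given here. The median log2 fold change over all genes was -0.04. The values of named genes and gene groups are therefore given with their spread, and "higher" and "lower" refer to the 4 levels, not to a call.

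The 15 genes with the smallest p among those higher in both carcinomas and at least 1 CPM on average included Cacna1b, Rtn4r, Tekt5, Col4a3, Celsr2, H19, Aebp1, Abcc12, Mir675, Vmn2r96, Renbp, Vil1, Cstb, and AI987944. Cacna1b, a subunit of a neuronal calcium channel at chr2:24603860-24763200 (mm10), stood at 91.5 and 24.3 CPM in the carcinomas, 1.15 and 1.15 in the adenomas, and at most 0.106 in any liver. Its log2 fold change between carcinomas and adenomas was 5.65 (SE 0.76, adjusted p = 0.162, edgeR; adjusted p = 1.43e-11, DESeq2). Tekt5, a filament protein of sperm flagella, measured 44.7, 55.5, 2.43, and 4.77 CPM, with livers at or below 0.214. For these genes the adenomas themselves lay above every liver, and the carcinomas lay above the adenomas.

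Col4a3, which encodes a type IV collagen chain of basement membranes (chr1:82586921-82722059), took the same order, at 81.7, 63.9, 20.8, and 19 CPM against 0.694 to 1.5 in the livers, a carcinoma to adenoma difference of 1.87 (log2, SE 0.31, adjusted p = 0.173). It rose against the livers in the carcinomas (log2 fold change 6.03) and in the adenomas (4.16). Celsr2, an adhesion receptor of planar cell polarity, measured 50, 25.4, 4.15, and 2.64 CPM. The secreted, carboxypeptidase-related protein gene Aebp1 measured 109.8, 77.2, 13.4, and 3.1 CPM, with 1.85 to 5.64 in the livers. Both rose in the carcinomas against the livers (5.73 and 5.09), while Aebp1 did not pass in the adenomas (adjusted p = 0.0743). Vil1, an actin-bundling protein of microvilli (chr1:74409384-74435560), differed more between the carcinomas than the other genes of this set, at 171 CPM in T-HCC941 and 18.9 in TCi-HCC981, with 2.11 and 0.747 in the adenomas. Cstb, an inhibitor of lysosomal cathepsins, had a narrower range, with 133 and 119.7 CPM in the carcinomas against 69 and 46.3 in the adenomas and 25.4 to 37.3 in the livers. Reads of Vmn2r96 (2.6, 3.26, 0, and 0 CPM), one of a large family of vomeronasal receptor genes with near-identical copies, are uncertain in their origin.

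The 15 genes at the other end included Grb14, Slco2b1, Olfr1033, Bahcc1, Cmah, Ptprd, Dmrta1, Slc25a34, Evc2, Snhg18, Tbx3, Tat, and Syde2. Grb14, an adaptor that inhibits the insulin receptor (chr2:64912476-65022766), stood at 25.2 and 19.9 CPM in the carcinomas and at 54 and 63.5 in the adenomas, and the adenomas lay at the level of the livers (51.7 to 63.3). The difference was -1.38 (log2, SE 0.21, adjusted p = 0.162, edgeR; adjusted p = 5.25e-07, DESeq2), and Grb14 fell in the carcinomas against the livers by 1.34 on the log2 scale. Slco2b1, an uptake transporter of organic anions (chr7:99657804-99711340), measured 28.9, 14.9, 88.5, and 125 CPM against 179 to 253 in the livers, so that the adenomas lay between the carcinomas and the livers. Tat, the tyrosine aminotransferase of the mature hepatocyte, took the same order at 182, 144, 485, and 896 CPM with livers at 999 to 1832.

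Tbx3, a transcription factor induced by beta-catenin in hepatocytes near the central vein, stood at 3.45, 2.7, 8.23, and 24.4 CPM, below the livers (37 to 73.1) in all 4 tumors. Evc2, a component of the primary cilium that takes part in Hedgehog signaling, had another pattern: it was at 0.954 and 0.712 CPM in the carcinomas and 0.386 to 1.28 in the livers, but at 9.45 and 8.16 in the adenomas, where it rose against the livers (3.71, adjusted p = 0.00202). Snhg18, a small nucleolar RNA host gene, was likewise above the liver median of 1.94 CPM in the adenomas (5.19 and 9.02) and below it in the carcinomas (1.06 and 1.12), without passing the test on either side. Of the 15 lower genes, the other 13 fell in the carcinomas against the livers, and of the 15 higher genes all rose. AI987944 lost its call once T-HCC941 was left out (log2 fold change 1.04). Over all genes 7.75% fell and 9.08% rose. The same 2 carcinomas had served to pick these genes, so much of this agreement was built into the choice and is no separate support. Olfr1033 (2.44, 3.72, 9.63, and 23 CPM) belongs to the large olfactory receptor family and is uncertain for the same reason as Vmn2r96.

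**Figure D1:**
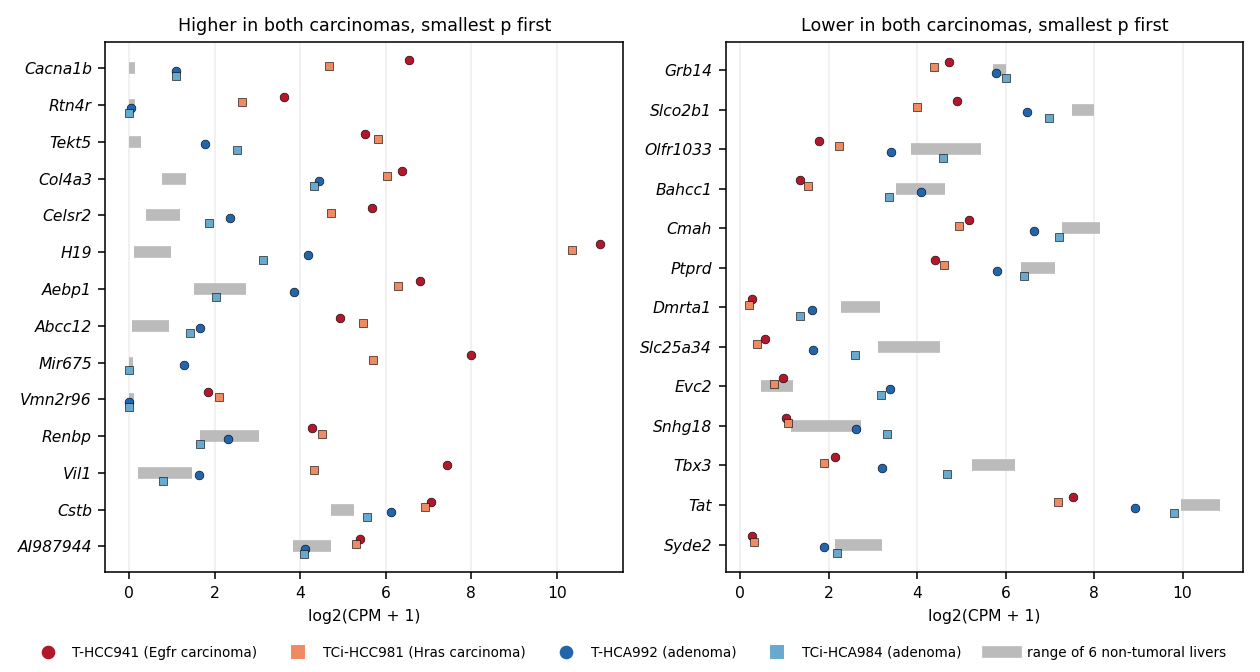
Levels, as log2(CPM + 1) on the horizontal axis, of genes from the 15 with the smallest p that were higher (left) and lower (right) in both carcinomas than in both adenomas; each point is 1 tumor and the grey bar is the range of the 6 non-tumoral livers. Most genes on the right lie at or near the liver bar in the adenomas and left of it in the carcinomas, with Evc2 and Snhg18 as exceptions, and on the left the adenomas lie between the livers and the carcinomas for Cacna1b, Tekt5, and Col4a3.

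Against the livers, 1378 genes rose (9.08%) and 1177 fell (7.75%) in the carcinomas, and 737 rose (4.85%) and 281 fell (1.85%) in the adenomas. Both comparisons used the same 6 livers, so they are given side by side. The adenoma counts rested on T-HCA992: without it 170 genes rose and 5 fell, and without TCi-HCA984 590 rose and 180 fell. The number that fell in the adenomas was also between 135 and 179 without any one of the livers p_961, p_663, p_941, or L981_CI, and the number that rose was 469 without L984_CI. The carcinoma counts were 787 and 541 without T-HCC941 and 709 and 314 without TCi-HCC981. With each tumor blocked on the liver of its own mouse, 790 rose and 641 fell in the carcinomas, and 144 rose and 14 fell in the adenomas. In each of the 10 fits that left out 1 library, 425 genes rose and 163 fell in the carcinomas, and 150 rose and 3 fell in the adenomas. The gene groups below are described by their members' levels and by these calls, and examples outside the 30 genes above were chosen after their values were seen.

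Of the mutated driver genes, Egfr was lower in both carcinomas than in both adenomas, by a small margin against TCi-HCA984, and Hras overlapped. Egfr (chr11:16752203-16913907) measured 159 CPM in T-HCC941, the tumor with the Egfr mutation, 197 in TCi-HCC981, 609.9 in T-HCA992, and 202 in TCi-HCA984, with livers at 142 to 385. The highest level was thus in an adenoma, and the carcinoma to adenoma difference was -1.19 (log2, SE 0.55, adjusted p = 0.537). Hras (chr7:141189934-141194019) measured 67.6 CPM in T-HCC941, 45.6 in TCi-HCC981, the tumor with the Hras mutation, 60.6 in T-HCA992, and 38.3 in TCi-HCA984, all close to the liver range of 37.6 to 67.7. Nras, another RAS gene, also overlapped between the classes (31.5, 40.3, 35.4, and 42.1 CPM). Of the 21 tested genes of the RAS to ERK core, 1 was higher and 5 were lower in both carcinomas, and the median log2 fold change was -0.12. Mapk3, which encodes a kinase of the ERK step, measured 70.7, 84.6, 65.5, and 74.4 CPM.

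The targets of ERK were, by their median, above the livers in all 4 tumors and at similar levels in both classes. Of 24 feedback and target genes tested, 6 were higher and 3 lower in both carcinomas than in both adenomas, none had an unadjusted p under 0.05, and the median difference was 0.12 (log2). Against the livers 13 rose in the carcinomas and 10 in the adenomas, 5 and 2 of them in every fit with 1 library left out. The counts were 6 without T-HCC941 and 6 without TCi-HCC981 in the carcinomas, 3 without T-HCA992 in the adenomas, and 6 there without liver p_961 or L984_CI. With the block on the own liver they were 7 and 0. The median level of the group stood above the mean of the livers by 1.21, 1.55, 1.14, and 1.38 (log2(CPM + 1)), where single livers ranged from -0.31 to 0.16. The paper reports a transcriptional signature of MAPK activation in T-HCC941, TCi-HCC981, and also T-HCA992.

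Dusp4, a phosphatase that inactivates ERK in the nucleus, measured 14.6, 16.2, 11, and 17.3 CPM against 0.463 to 2.63 in the livers, and rose in the carcinomas (3.53) and in the adenomas (3.41). Dusp6, the phosphatase of cytoplasmic ERK, stood at 99.6 and 120.4 CPM in the carcinomas and at 148 and 151 in the adenomas, where it rose by 1.71 (log2, adjusted p = 0.00453). In the carcinomas Dusp6 rose by 1.27, with an adjusted p of 0.0837 without TCi-HCC981. Dusp6 was thus lower in both carcinomas than in both adenomas, as were 3 of the 24 genes in all, while 6 were higher. Dusp5 went the other way, with 11.6 and 20.1 CPM in the carcinomas against 8.31 and 6.38 in the adenomas (1.11, SE 0.78, adjusted p = 0.658). Lif, an interleukin-6 family cytokine, was at 13.7, 14.3, and 15.2 CPM in T-HCC941, TCi-HCC981, and T-HCA992 but at 2.13 in TCi-HCA984. Egr1, an immediate early transcription factor, measured 267, 297, 147, and 169 CPM, Ccnd1, the cyclin D1 gene, 72.7, 78.3, 129.9, and 51.2, and Spry1, a Sprouty inhibitor of RAS signaling, 6.52, 7.48, 17.7, and 9.66.

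**Figure D2:**
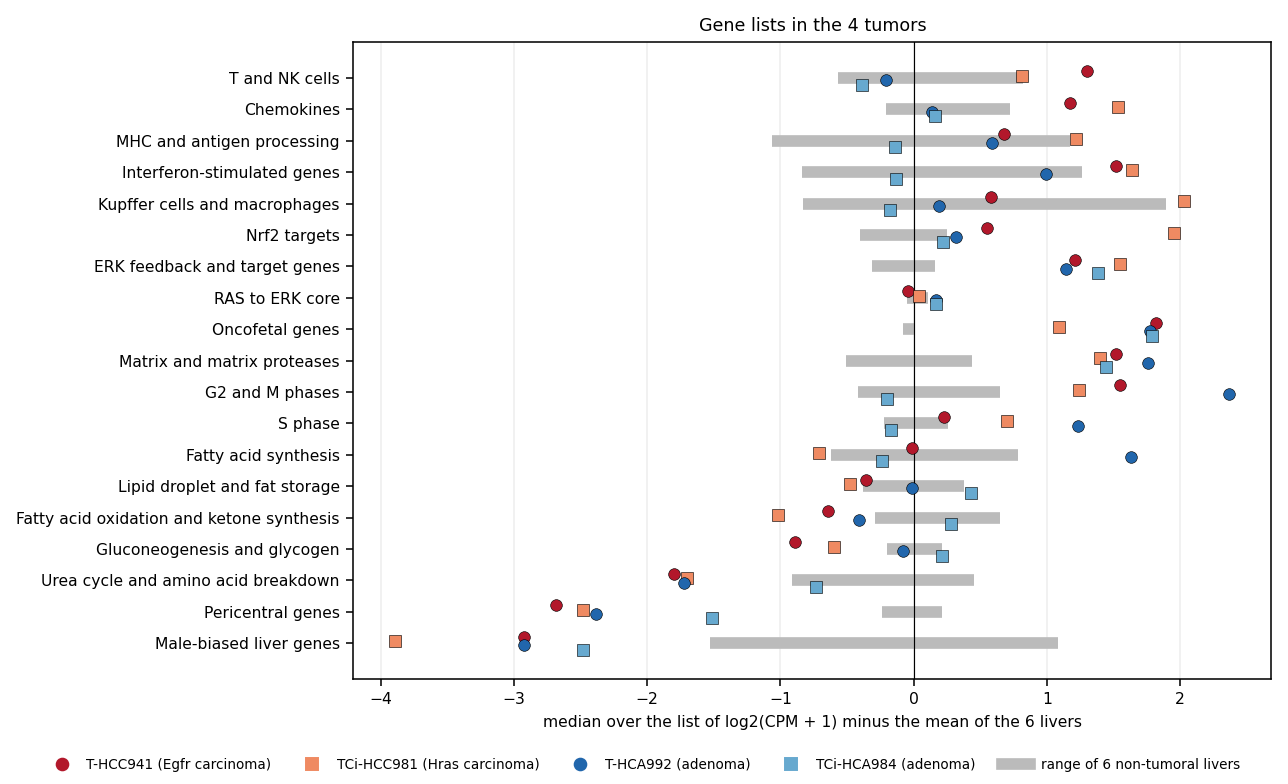
Median over the members of 19 gene groups of the difference in log2(CPM + 1) from the mean of the 6 livers; each point is 1 tumor and the grey bar is the range of the livers. ERK targets lie between 1.14 and 1.55 in all 4 tumors, Nrf2 targets and the T and NK cell genes are higher in the carcinomas, and genes of fatty acid oxidation are lower in them.

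Among the EGFR ligands and ErbB receptors (10 of 13 tested), the ligands differed in direction. Hbegf, whose product binds EGFR and ErbB4, measured 17.8, 7.63, 2.76, and 3.16 CPM with livers at 0.429 to 1.94, a difference of 2.10 (log2, SE 0.68, adjusted p = 0.501). It rose in the carcinomas against the livers (3.40), and in the adenomas it was at 1.30 with an adjusted p of 0.171. Btc, the betacellulin gene, measured 36.3, 17, 9.67, and 13.7 CPM with livers at 1.31 to 3.14 (1.19, SE 0.49, adjusted p = 0.523), and rose in the carcinomas (3.56) and the adenomas (2.38). Tgfa, which encodes TGF-alpha, was lower in the carcinomas, with 29.6 and 38.1 CPM against 48.8 and 49.6 in the adenomas and 16.9 to 22.6 in the livers (-0.54, SE 0.21, adjusted p = 0.521). It rose against the livers in the adenomas (1.33, adjusted p = 0.00151), and in the carcinomas (0.79) with an adjusted p of 0.118 without TCi-HCC981. Nrg1, a ligand of ErbB3 and ErbB4, also stood higher in the adenomas (13.5 and 8.28 CPM) than in the carcinomas (4.98 and 1.88), where its call against the livers was lost without T-HCC941 (adjusted p = 0.0999). The receptor Erbb2 was at 0.795, 0.662, 2.47, and 1.55 CPM and Erbb3 at 56.1, 30.7, 70.1, and 63.6. Over the group, 3 genes were higher and 6 lower in both carcinomas, with a median of -0.58.

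The imprinted neighbours H19 and Igf2 on chromosome 7 were among the oncofetal genes that were higher in both carcinomas. H19, a noncoding RNA of fetal liver (chr7:142575530-142578146), measured 2038 CPM in T-HCC941, 1305 in TCi-HCC981, 17.2 in T-HCA992, and 7.82 in TCi-HCA984, against 0.0844 to 0.961 in the livers. The groups did not overlap, and the difference was 7.06 (log2, SE 1.24, adjusted p = 0.232, edgeR; adjusted p = 1.54e-05, DESeq2). It rose in the carcinomas (12.42) and in the adenomas (5.36, adjusted p = 0.00653), the latter with an adjusted p of 0.0659 without T-HCA992. Igf2, the fetal growth factor encoded beside it (chr7:142650768-142666816), measured 675, 22.1, 20.8, and 1.09 CPM with livers at 0.198 to 1.12 (4.97, SE 1.49, adjusted p = 0.458). Unlike H19, Igf2 in TCi-HCC981 was at the level of T-HCA992. Igf2bp3, an oncofetal RNA-binding protein that binds Igf2 mRNA, was at 6.73, 11.9, 3.01, and 1.15 CPM with livers at 1.02 to 1.43 (2.15, SE 0.53, adjusted p = 0.438), and rose in the carcinomas (2.95).

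Reads were also assigned to Mir675, the gene of a microRNA precursor that lies inside H19, at 254, 50.7, 1.43, and 0 CPM. The libraries hold poly(A) RNA, so these reads and those of the H19 transcript cannot be told apart and mature microRNAs were not measured. The mature sequences are shown because the precursor was among the 15 genes above. They come from the RefSeq annotation of GRCm38.p6, on the minus strand, and capitals mark the seed, bases 2 to 8, which differs between the arms. The 5p arm lies at chr7:142577112-142577133 and the 3p arm at chr7:142577078-142577099, within a hairpin of 84 bases.
mmu-miR-675-5p: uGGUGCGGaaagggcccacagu
mmu-miR-675-3p: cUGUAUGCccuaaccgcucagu

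Other oncofetal genes were above the livers in both classes. Of 23 tested, 7 were higher and 5 lower in both carcinomas than in both adenomas, with a median of 0.08, while 12 rose against the livers in the carcinomas (9 in every fit with 1 library left out) and 12 in the adenomas (4 in every such fit, and 5 without T-HCA992). Golm1, a Golgi membrane protein used as a serum marker of liver cancer, measured 61.4, 73.5, 72.9, and 65.6 CPM against 1.47 to 11.9 in the livers. Afp, the alpha-fetoprotein gene, measured 231 and 52.4 CPM in the carcinomas and 116 and 29.2 in the adenomas, so it was higher in the p21+/Tert tumor of each class. Gpc3, the oncofetal proteoglycan glypican 3, was split the other way, at 10.8 and 18 CPM in the p21+/Tert tumors and 388 and 248 in the p21+/TertCi tumors. Robo1, an axon guidance receptor, was higher in the adenomas (39.1 and 36.2 CPM) than in the carcinomas (15.7 and 15.2) and the livers (11.7 to 15.6). The Robo1 difference was -1.28 (log2, SE 0.29, adjusted p = 0.384, edgeR; adjusted p = 0.0224, DESeq2).

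Nrf2, encoded by Nfe2l2, is a transcription factor released from its inhibitor KEAP1 under oxidative or electrophilic stress. With small MAF proteins it binds the antioxidant response element, and it induces enzymes of glutathione and thioredoxin metabolism and of NADPH supply. Of 32 Nrf2 targets tested, 17 were higher and 2 lower in both carcinomas, with unadjusted p under 0.05 for 14 and 2. The background shares were 18.9% and 21.4% for the order of the 4 levels and 4.28% and 5.02% for the unadjusted p. The median log2 fold change was 0.97, against -0.04 over all genes, and it was 0.35 without TCi-HCC981. The group's level above the mean of the livers was 0.55 in T-HCC941, 1.95 in TCi-HCC981, 0.32 in T-HCA992, and 0.22 in TCi-HCA984, with single livers at -0.40 to 0.25, so that the Hras-mutated carcinoma stood furthest out. Against the livers 17 rose in the carcinomas (8 in every fit with 1 library left out, 8 without TCi-HCC981, 11 without liver L984_CI) and 6 in the adenomas (2 without T-HCA992, 3 without liver L984_CI).

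The antioxidant response element was searched as TGACNNNGC on both strands in windows from 250 bases before to 50 bases after each gene start (RefSeq, GRCm38.p6). It was found in 12.4% of all 32851 windows and in 10 of 33 windows (30.3%) of the 27 listed genes that have one, which belong to 9 genes. A match is a description of the letters and not a site of binding. The stretches of 21 bases around the motif in capitals are shown for the 3 genes higher in both carcinomas with an unadjusted p under 0.05 and for the 2 genes lower in them. Srxn1 lies at chr2:152105546-152105566, Txnrd1 at chr10:82859108-82859128, Ugdh at chr5:65435922-65435942 and chr5:65435960-65435980, Me1 at chr9:86695906-86695926, and Nfe2l2 at chr2:75704889-75704909. The Ugdh (1) stretch reads the plus strand and the others the minus strand.
Srxn1: tcactcTGACCTAGCtgccca
Txnrd1: tcagaaTGACAAAGCaaaaat
Ugdh (1): actgtaTGACCACGCcccttg
Ugdh (2): agcccgTGACTTAGCtggagc
Me1: ccgccgTGACTCAGCgcttct
Nfe2l2: cccaccTGACTCCGCcatgcc

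Srxn1, the sulfiredoxin that repairs peroxiredoxins (chr2:152105524-152111376), measured 418, 301, 212, and 143 CPM against 54.1 to 84.4 in the livers (1.01, log2, SE 0.28, adjusted p = 0.458). It rose in the carcinomas (2.55), and in the adenomas (1.53) with an adjusted p of 0.0652 without T-HCA992. Txnrd1, the cytosolic thioredoxin reductase, measured 315, 249.7, 197, and 173 CPM, and Ugdh, which makes the UDP-glucuronate of glucuronidation, 229, 241, 133, and 125. Gpx2, a glutathione peroxidase known from the gut epithelium (chr12:76792335-76795554), has no match in its window and had the widest gap of the group, at 39.7 and 33.5 CPM in the carcinomas, 0.179 and 0.575 in the adenomas, and at most 0.214 in the livers. Its difference was 6.65 (log2, SE 1.49, adjusted p = 0.384, edgeR; adjusted p = 8.49e-05, DESeq2). Cbr1, a carbonyl reductase, was at 335, 367, 171, and 172 CPM with livers at 59.2 to 121, and its neighbour Cbr3 at 145, 167, 29.1, and 83.7 with livers at 0.463 to 2.15. Cbr3 rose in the carcinomas (6.86) and in the adenomas (5.39).

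Slc7a11, the cystine importer that feeds glutathione synthesis, also rose in both, with 70.3, 129.6, 9.27, and 53.9 CPM against at most 0.38 in the livers. Nqo1, a quinone reductase, was carried by TCi-HCC981 at 223 CPM, with 31.4 in T-HCC941, 14.8 in T-HCA992, and 54 in TCi-HCA984. Gclc, a subunit of the enzyme that limits glutathione synthesis, measured 2075 CPM in that tumor against 372, 657, and 634 in the other tumors, and Hmox1, heme oxygenase, 83.5 against 8.75, 18.8, and 18. Akr1b7 (10.1, 24.2, 1.61, and 0.517 CPM) and Gsta1 (43, 141, 16, and 9.08) were higher in both carcinomas, but each has a near-identical neighbour and its reads may be shared. The exceptions were Nfe2l2 itself, at 75.8, 77.7, 202, and 113 CPM (-1.04, SE 0.34, adjusted p = 0.501), and Me1, the NADPH-yielding malic enzyme, at 51.4, 45, 120.0, and 67. Keap1 measured 84.3, 62.4, 83.4, and 66 CPM. Most targets of Nrf2 that ordered the classes were thus higher in the carcinomas, where its own transcript was lower.

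**Figure D3:**
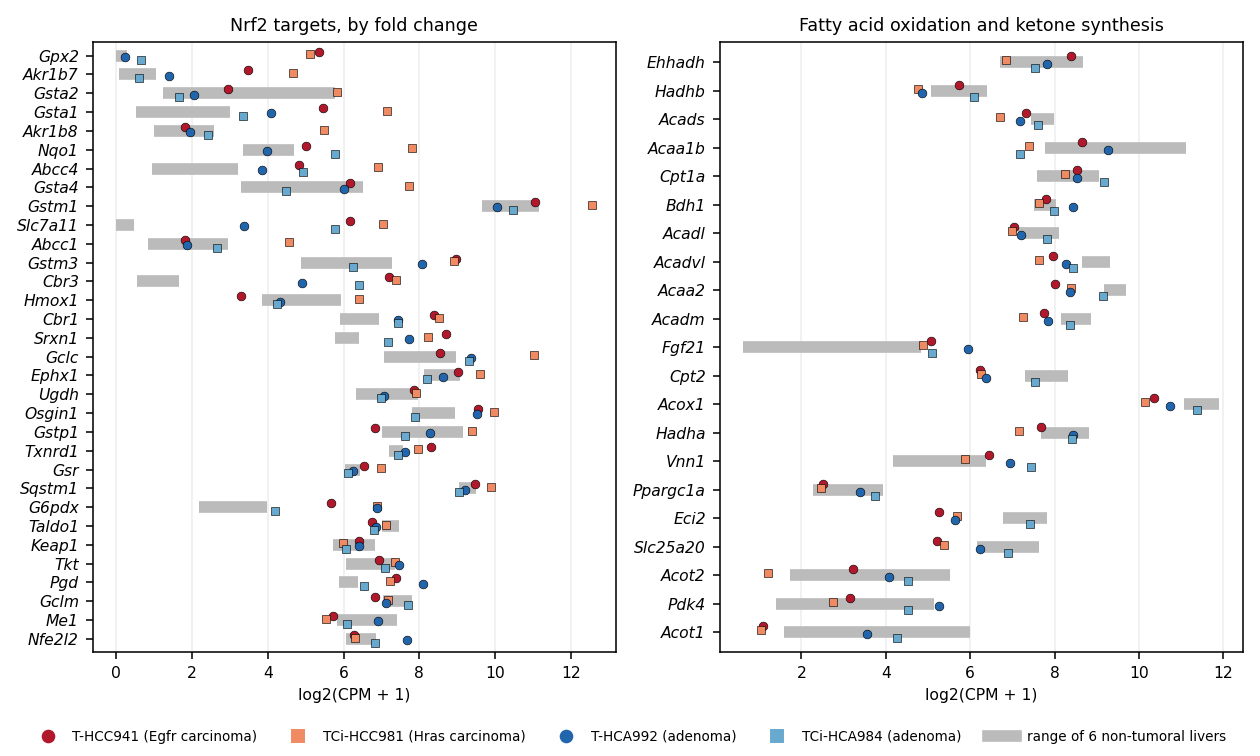
Levels, as log2(CPM + 1) on the horizontal axis, of Nrf2 targets (left) and of genes of fatty acid oxidation and ketone synthesis (right), sorted by the difference between carcinomas and adenomas; points are tumors and grey bars the range of the 6 livers. Gpx2 shows the widest gap on the left, and on the right most genes are lower in both carcinomas than in both adenomas, as Slc25a20 is at 36.1 and 40.5 CPM against 74.5 and 117.

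In the hepatocyte, fatty acids enter mitochondria as carnitine esters, pass through beta-oxidation, and leave in part as ketone bodies. Of 23 genes of fatty acid oxidation and ketone synthesis, 17 were lower and none was higher in both carcinomas than in both adenomas (background 21.4% lower). An unadjusted p under 0.05 was reached by 7, all lower, and none passed the adjusted p in edgeR or DESeq2. The median log2 fold change was -0.83, between -0.69 and -0.97 when 1 of the 4 tumors was left out, but -0.19 with each tumor set against the liver of its own mouse. Single tumors lay at -0.64, -1.02, -0.41, and 0.28 relative to the livers, which themselves ranged from -0.29 to 0.65. Against the livers 8 fell in the carcinomas and none in the adenomas. No gene of the 8 fell in every fit with 1 library left out: the count was 0 without T-HCC941 or TCi-HCC981, and 3 to 5 without any one liver other than L981_CI.

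Slc25a20, the carnitine carrier of the inner mitochondrial membrane, was at 36.1, 40.5, 74.5, and 117 CPM with livers at 70.3 to 196 (-1.32, log2, SE 0.43, adjusted p = 0.501). Both carcinomas lay below every liver, and the adenomas lay within the liver range. Ppargc1a, the coactivator PGC-1 alpha of mitochondrial and fasting genes, measured 4.66, 4.48, 9.52, and 12.4 CPM (-1.26, SE 0.36, adjusted p = 0.458), although the livers reached from 3.81 to 14.3. Pdk4, which restrains pyruvate oxidation in fasting, was at 7.84, 5.7, 37.2, and 22 CPM, and Acot1, an acyl-CoA thioesterase induced by PPAR alpha, at 1.11, 1.07, 10.8, and 18.1. Acot1 ranged from 2 to 62.4 CPM and Pdk4 from 1.64 to 34.5 among the livers.

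Fat storage and synthesis were less uniform. Among 26 lipid droplet and fat storage genes, 2 were higher and 13 lower in both carcinomas, with a median of -0.67. Lpl, the lipoprotein lipase that adult hepatocytes express at a low level, was one of the 2, at 735 and 642 CPM in the carcinomas, 165 and 223 in the adenomas, and 10.2 to 109 in the livers (1.83, log2, SE 0.86, adjusted p = 0.545), and rose in the carcinomas against the livers (4.18). Mgll, the monoglyceride lipase, was lower, at 53.5, 19.5, 128, and 139 CPM with livers at 119 to 384. Cidec, a protein that fuses lipid droplets, was at 21.7, 0.865, 66.9, and 62.1 CPM, and Plin2, a coat protein of droplets, at 673, 322, 1133, and 733. Genes of fatty acid synthesis were carried by 1 adenoma: Fasn, the fatty acid synthase, measured 3101 CPM in T-HCA992 against 664, 389.7, and 312 in the other 3 tumors, and Acly, which supplies its acetyl-CoA, 1265 against 176, 126, and 130.1. The median of the 19 synthesis genes was -1.22 between the classes and 0.19 without T-HCA992.

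Genes of glucose output were also lower in the carcinomas than in the adenomas, 7 of 15 in both and none higher. The median was -0.74, and -0.17 without TCi-HCA984. Against the livers 2 of the 15 rose and 2 fell in the carcinomas, and 2 rose and 0 fell in the adenomas. In the carcinomas the rising calls held in every fit with 1 library left out, and the falling calls did not. Slc2a2, the glucose transporter GLUT2 of the hepatocyte membrane, measured 67.4 and 20.9 CPM in the carcinomas, 130.0 and 271 in the adenomas, and 116 to 242 in the livers. The Slc2a2 difference was -2.18 (log2, SE 0.59, adjusted p = 0.458, edgeR; adjusted p = 0.0287, DESeq2). Fbp1, the fructose bisphosphatase of gluconeogenesis, measured 167, 306, 432, and 959.9 CPM against 689 to 1075 in the livers (-1.56, SE 0.46, adjusted p = 0.458), and Ppp1r3b, which targets a phosphatase to glycogen, 79, 68.2, 432, and 235. In the fit against the livers Slc2a2 fell in the carcinomas (-2.23), with an adjusted p of 0.128 without TCi-HCC981.

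Genes that beta-catenin maintains around the central vein were low in all 4 tumors and lowest in the carcinomas. Of 20 pericentral genes, 18 fell against the livers in the carcinomas (10 in every fit with 1 library left out, 11 without TCi-HCC981) and 10 in the adenomas (none in every such fit, and none without T-HCA992). Relative to the livers the group stood at -2.68, -2.48, -2.38, and -1.51, so the adenoma TCi-HCA984 kept the most. Both carcinomas were below both adenomas in 11 of the 20 genes, and the median difference was -1.11, or -0.29 without TCi-HCA984. Glul, the glutamine synthetase of the last hepatocytes before the central vein, measured 138, 148, 152, and 445 CPM against 1104 to 1860.4 in the livers and fell in the carcinomas (-3.14). Axin2, a feedback inhibitor and standard readout of Wnt signaling, was at 1.43, 2.14, 3.01, and 4.2 CPM with livers at 9.8 to 14 (adjusted p = 0.458 between the classes, edgeR). Cyp2e1, the ethanol-oxidizing P450, measured 228, 75, 234, and 1894 CPM against 4018 to 6448 (-2.81, SE 0.84, adjusted p = 0.458, edgeR; adjusted p = 0.0203, DESeq2). Lect2, a secreted target of beta-catenin, took the same order at 12.5, 14.9, 31.7, and 78.4 CPM with livers at 99.9 to 242 (-2.01, SE 0.44, adjusted p = 0.345, edgeR; adjusted p = 0.00301, DESeq2). Axin2, Cyp2e1, and Lect2 fell in the carcinomas against the livers in every fit with 1 library left out.

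Of 25 urea cycle and amino acid genes, 14 fell in the carcinomas (9 without T-HCC941, 6 without TCi-HCC981) and 10 in the adenomas (none without T-HCA992, and 3 to 6 without liver p_961, p_663, p_941, or L981_CI), and 5 were lower in both carcinomas than in both adenomas, a share near the 21.4% of all genes. Aass, the entry enzyme of lysine breakdown, measured 48.8, 39.5, 71.6, and 147 CPM, below the livers, which reached 274 (-1.31, log2, SE 0.32, adjusted p = 0.425, edgeR; adjusted p = 0.0193, DESeq2). Bhmt, which remethylates homocysteine, was at 609, 293, 729, and 2973 CPM. By contrast Cps1, the mitochondrial entry enzyme of the urea cycle, measured 872, 1325, 848, and 1151 CPM, within the liver range of 737 to 2935.

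Among 20 transporters of bile acids and drugs, 5 were higher and 6 lower in both carcinomas. The uptake carriers Slco1b2 (76.6, 22.6, 119, and 556 CPM; livers 724 to 1204) and Slc10a1, the bile acid importer NTCP (86.7, 60.1, 152, and 229.6; livers 343 to 551), were lower, with differences of -2.77 (log2, SE 0.72, adjusted p = 0.453, edgeR; adjusted p = 0.00703, DESeq2) and -1.38 (SE 0.42, adjusted p = 0.458). Both fell in the carcinomas against the livers. The sterol exporters Abcg5 and Abcg8, which form 1 heterodimer, were higher, at 275, 338, 54.2, and 108 CPM and at 283, 378, 62.9, and 97.2 CPM, with livers at 29.2 to 242 for Abcg5. The differences were 1.92 for Abcg5 (SE 0.81, adjusted p = 0.527) and 2.05 for Abcg8 (SE 0.74, adjusted p = 0.516). The cytochrome Cyp2a5 was also higher, at 1533, 1627, 349.6, and 226 CPM with livers at 67.8 to 2217, while its close relative Cyp2a4 was at 2341, 2747, 2312, and 2658 CPM in the 4 tumors and at 0.694 to 19.2 in the livers. Cyp7a1, the rate-limiting enzyme of bile acid synthesis, varied widely, at 12.9, 0.153, 21, and 142 CPM with livers at 108 to 338.

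Transcripts of T and NK cells had the most one-sided order of the 45 gene groups. Of 21 genes tested, 20 were higher in both carcinomas than in both adenomas and none was lower, against backgrounds of 18.9% and 21.4%. An unadjusted p under 0.05 was reached by 12, none passed the adjusted p in edgeR, and 1 did in DESeq2. The median log2 fold change was 2.66, between 2.39 and 3.79 with 1 of the 4 tumors left out, and 1.48 with each tumor set against the liver of its own mouse. The levels were low: the 6 T cell markers in the files summed to 32.4 and 18.1 CPM in the carcinomas, 5.37 and 2.82 in the adenomas, and 1.44 to 13.5 in the livers. In bulk tissue, more cells of a type and more RNA per cell cannot be told apart. The paper's protein imaging of small tumor regions gave another order. There T-HCA992 was, with T-HCC941, among the tumors most infiltrated by T cells, and TCi-HCC981 was intermediate.

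Cd8a, the coreceptor of cytotoxic T cells, measured 13.7, 4.99, 1.47, and 0.747 CPM with livers at 0.149 to 3.72 (3.05, log2, SE 1.12, adjusted p = 0.519). Nkg7, a granule protein of cytotoxic lymphocytes, was at 10, 6.82, 0.537, and 0.402 CPM (4.13, SE 1.05, adjusted p = 0.445, edgeR; adjusted p = 0.00634, DESeq2), with 1 liver reaching 6.88. Prf1, the perforin gene, measured 3.5, 4.12, 0.322, and 0.115 CPM (4.04, SE 1.14, adjusted p = 0.458), and Gzmb, granzyme B, 2.65, 5.75, 0.251, and 0.23. Pdcd1, which encodes the checkpoint receptor PD-1, was at 2.17 and 0.611 CPM in the carcinomas and had no read in either adenoma. Ncr1, an NK cell receptor, was the gene whose levels overlapped (0, 1.22, 0.0716, and 0.23 CPM). Against the livers 2 of the 21 genes, Prf1 (3.28) and Cd8a (2.63), rose in the carcinomas and none in the adenomas. The carcinoma count depended on single libraries: it was 0 without T-HCC941 or without TCi-HCC981, and 11 without liver L981_CI. The adenomas lay at or below the middle of the liver range, at -0.21 and -0.39 against livers from -0.57 to 0.82, and the carcinomas at 1.30 and 0.81.

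**Figure D4:**
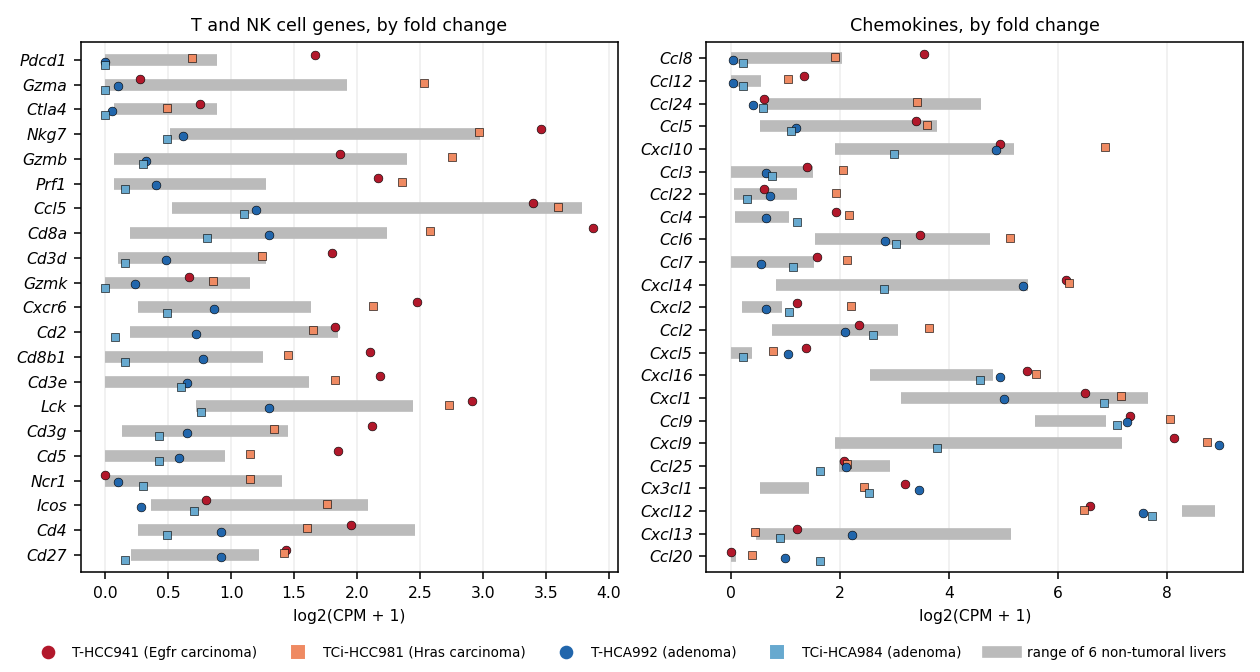
Levels, as log2(CPM + 1) on the horizontal axis, of genes of T and NK cells (left) and of chemokines (right); points are tumors and grey bars the range of the 6 livers. Both carcinomas lie to the right of both adenomas in 20 of 21 T and NK cell genes and in 13 of 23 chemokines, and many adenoma points fall within the liver bars.

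Of 23 chemokines 13 were higher and 2 lower in both carcinomas, with a median of 1.57 (0.60 without TCi-HCC981 and 0.17 against the own livers). Ccl5, made by cytotoxic lymphocytes among others, measured 9.54, 11.1, 1.29, and 1.15 CPM with livers at 0.446 to 12.8. Cxcl9, an interferon-induced attractant of T cells, was high in T-HCA992 as well (279, 425, 492, and 12.8 CPM). Cxcl12, which stromal and liver cells make at steady state, was lower in the carcinomas (95.5, 88.5, 188, and 210.0 CPM; livers 309 to 466). The Cxcl12 difference was -1.11 (log2, SE 0.26, adjusted p = 0.398, edgeR; adjusted p = 0.000955, DESeq2). Interferon-stimulated genes (11 of 24 higher, 1 lower) included Oas2, a sensor of double-stranded RNA, at 60.8, 40.2, 9.13, and 6.44 CPM and Mx1, an antiviral GTPase, at 26.2, 27.4, 3.76, and 2.99.

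Of 20 genes of MHC and antigen processing 12 were higher, and of 21 macrophage genes 9, with none lower in either group. H2-Aa, an MHC class II chain, measured 149.7, 390.0, 84.9, and 48.6 CPM with livers at 5.85 to 385. The macrophage median was 1.39, and 0.04 without TCi-HCC981, and the MHC and interferon medians (0.75 and 0.81) were -0.25 and -0.27 against the own livers. Macrophage markers summed to 411, 965, 252, and 169.6 CPM, within the liver range of 141 to 1283. B and plasma cell markers summed to 8.11, 32, 15.9, and 7.7 CPM and neutrophil markers to 9.38, 10.7, 3.29, and 12.8, so neither sum ordered the classes. Stellate cell and fibroblast markers (109.7, 168, 235, and 154 CPM) and endothelial markers (125, 224, 178, and 157) did not either. In the longer neutrophil list 5 of 8 genes were higher and none lower in both carcinomas, with a median of 0.98.

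Transcripts of proliferation did not separate the classes. By Ki67 protein staining, the paper reports minimal labelling in both adenomas, strong labelling in T-HCC941, and high levels in the remaining tumors. Of 30 genes for G2 and mitosis, none was higher or lower in both carcinomas, because the adenomas lay on either side of them. Mki67, the Ki-67 gene, measured 28.9 and 17.7 CPM in the carcinomas, 49.2 in T-HCA992, and 3.1 in TCi-HCA984, with livers at 0.347 to 10.2. Top2a, the topoisomerase of dividing cells, took the same order at 12.9, 12.2, 31, and 1.03 CPM. The group's level above the livers was 1.55, 1.24, 2.37, and -0.20, and the median difference moved from -0.18 to 2.85 without T-HCA992. Cdkn1a, whose promoter drives the transgene, measured 79.6, 72.1, 74.2, and 53.5 CPM against 1.64 to 52.2 in the livers, without passing the test in either class. Tert was at 9.22, 15.7, 26.1, and 17.1 CPM with livers at 10.7 to 17.5. The paper describes Tert mRNA as high in both adenomas, but here TCi-HCA984 lay within the liver range. Counts per gene symbol do not separate the native Tert gene from the introduced Tert or TertCi. Cdkn2b, the inhibitor p15, was at 17.4, 32.7, 22, and 5.46 CPM with livers at 0.154 to 0.532, and rose in the carcinomas (5.89) and in the adenomas (5.03). The paper lists Cdkn2b among the genes with a copy loss in TCi-HCC981, the tumor with the highest level here.

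The genes mutated in single tumors of the set had no common order. Ppp1r9a, a scaffold of protein phosphatase 1, measured 4.65 CPM in T-HCA992, which carries a frameshift, and 4.63 in TCi-HCC981, which has none listed, with 25.3 in T-HCC941 and 19.1 in TCi-HCA984. Ptpre, a tyrosine phosphatase, was at 16.9 CPM in T-HCA992, where it is mutated, and at 25.9, 39.8, and 16 in T-HCC941, TCi-HCC981, and TCi-HCA984, with livers at 1.16 to 5.44. It rose in the carcinomas (3.54, adjusted p = 0.00121), and in the adenomas (2.54) with an adjusted p of 0.0988 without T-HCA992. Ep300, a histone acetyltransferase, was at 46 CPM in TCi-HCA984, which carries the mutation, and at 33.6, 46.6, and 39.1 in the other 3 tumors. Ppp1r1a had at most 0.0509 CPM in any of the 4 and was not tested.

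In the extracellular matrix, 2 of 24 genes were higher and 8 lower in both carcinomas, and 10 rose against the livers in each class (3 in every fit with 1 library left out, for both). The carcinoma count was 4 without T-HCC941 and 6 without TCi-HCC981, and the adenoma count 3 without T-HCA992 and 6 without liver L984_CI. Mmp13, a collagenase, measured 8.11, 36.3, 6.09, and 4.66 CPM with livers at 0.231 to 1.06 (2.05, log2, SE 0.66, adjusted p = 0.501). The basement membrane chains Col4a1 (111, 104, 194, and 198 CPM) and Col4a2 (75.5, 79.7, 120.3, and 150.0) were lower in the carcinomas, opposite in order to Col4a3. Bile duct and progenitor genes were mixed. Sox9, a transcription factor of duct cells, was at 29, 55.8, 21.9, and 21.9 CPM with livers at 7.17 to 14.8 and rose in the carcinomas (2.04), Epcam, an adhesion molecule of duct cells, was at 0.212, 0.254, 2.58, and 0.92, and Spp1, the osteopontin gene, was at 376, 4.12, 1037, and 264. The 5 duct markers summed to 406, 60.2, 1063, and 288 CPM against 50.4 to 135 in the livers. Spp1 made up most of the sum in T-HCC941, T-HCA992, and TCi-HCA984 but not in TCi-HCC981, where 2 of the markers had no read.

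Genes that male livers express more highly were low in all 4 tumors. Of 18 tested, 10 fell in the carcinomas (4 in every fit with 1 library left out, 5 without TCi-HCC981) and 6 in the adenomas (none without T-HCA992), and 4 were lower in both carcinomas than in both adenomas.

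Relative to the livers the male-biased group stood at -2.92, -3.89, -2.92, and -2.48, with single livers from -1.53 to 1.08. Cyp4a12a, a male-specific fatty acid hydroxylase, measured 7.84, 3.92, 8.2, and 39.1 CPM against 44.1 to 324 in the livers, and Nudt7, a peroxisomal hydrolase, 58.1, 34, 91.1, and 92.1 against 238 to 909.7. Mup20, the male urinary pheromone, was at 821, 78.4, 3022, and 3294 CPM, and only TCi-HCC981 lay outside the liver range of 609 to 8623. The major urinary protein genes are a family of near-identical copies, so the value of a single member is uncertain. Female-biased genes had no order, with 3 of 17 higher, 3 lower, and a median of -0.10.

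Expression also differed by chromosome, which bears on genes named above. Over genes of at least 5 CPM on average, the median level of chromosome 1 genes relative to the livers was 0.29 in T-HCC941 and 0.40 in TCi-HCC981 against -0.02 and 0.09 in the adenomas, on the log2(CPM + 1) scale. Of 611 such genes 278 were higher and 33 lower in both carcinomas, and the median log2 fold change was 0.34. Col4a3 and Vil1 lie on this chromosome, and their differences were 1.87 and 6.01. Chromosome 15 (0.18, 0.36, 0.03, and 0.09) and chromosome X (0.27, 0.23, -0.03, and 0.08) were also higher, with 153 of 437 and 83 of 276 genes higher in both carcinomas.

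Chromosome 13 (-0.62, -0.24, -0.20, and 0.02) and chromosome 8 (-0.41, -0.38, -0.25, and -0.05) were lower, with 144 of 373 and 223 of 574 genes lower in both carcinomas. So were chromosomes 3 (184 of 499 genes), 4 (254 of 684), and 6 (197 of 513). The median log2 fold changes between the classes were -0.34 for chromosome 13, -0.24 for 8, -0.25 for 3, -0.23 for 4, and -0.24 for 6. Cmah, Fbp1, and Lect2 lie on chromosome 13 and Tat on chromosome 8. The livers stayed within -0.08 and 0.09 on every chromosome. In T-HCA992, chromosome 17 was lowest, at -0.40. From exome data the paper reports no detectable gains or losses in T-HCA992 and TCi-HCA984. Among recurrent changes it lists gains on chromosomes 5 and 15 and a loss on 4 for TCi-HCC981. For T-HCC941 it lists gains on 5 and X. The median of chromosome 5 genes was 0.15 in T-HCC941 but -0.26 in TCi-HCC981. DNA copies were not analysed here, and the part of dosage in the values of single genes was not tested.

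**Figure D5:**
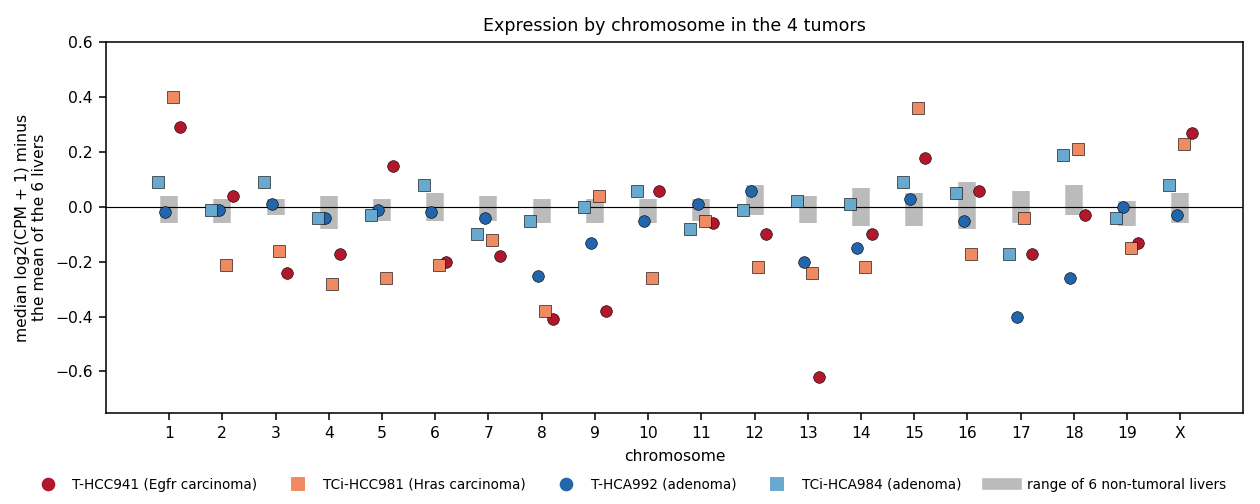
Median difference in log2(CPM + 1) from the mean of the 6 livers, for genes of at least 5 CPM, by chromosome on the horizontal axis; points are tumors and grey bars the range of the livers. Both carcinomas are above the liver bars on chromosomes 1, 15, and X and below them on 3, 4, 6, 7, 8, 12, 13, 14, and 19, whereas TCi-HCA984 lies between -0.10 and 0.09 on all of these.

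Each class held 1 tumor of each genotype, so the class difference could be formed in the p21+/Tert pair (T-HCC941 against T-HCA992) and in the p21+/TertCi pair (TCi-HCC981 against TCi-HCA984). The difference between the pairs passed the threshold for no gene, with 645 genes (4.25%) at an unadjusted p under 0.05, and in DESeq2 for 40 genes with a higher and 13 with a lower value in the p21+/Tert pair. Each of these fits takes the spread of a single tumor from the other groups, and no test within a pair is given, since a pair has 1 library on each side. Kcnk5, a potassium channel gene, passed the threshold between the classes without T-HCC941 (-3.29, SE 0.35, adjusted p = 0.0245), where TCi-HCC981 is the lone carcinoma and is assumed to vary like the other groups. It measured 11, 1.73, 17.4, and 16.6 CPM with livers at 33.6 to 51.2. For Slco2b1 the carcinoma was below the adenoma in both pairs, at 28.9 against 88.5 CPM and at 14.9 against 125. For Spp1 it was too, at 376 against 1037 CPM and at 4.12 against 264, although T-HCC941, T-HCA992, and TCi-HCA984 lay above every liver while TCi-HCC981 lay below.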

How the data were processed

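Poly(A) RNA was sequenced by the authors from both ends of the fragments, aligned to mm10 with Subread, and counted per gene with featureCounts (version 1.6.4 in the submitters' processing notes, which also list SAMtools). The deposited values are raw counts, whole numbers of reads for 24421 gene symbols per library, 1 table per sample. Strandedness and the handling of reads with several alignments are not given in the sources used here. The authors corrected for the sequencing run, which is not given per sample and could not be modelled.

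Genotype and tissue were taken from the labels. The tumor class came from the histology and the mutations the study reports for each animal number. Counts were filtered with filterByExpr (15182 genes kept), scaled by TMM, and tested with edgeR 4.0.16 (quasi-likelihood, Benjamini-Hochberg adjustment, threshold 0.05) in R 4.3.3 with limma 3.58.1, in 1 model of all 12 libraries with 5 groups. SE is the log2 fold change divided by the square root of F. DESeq2 1.42.0 was an alternative. Levels for groups of genes are log2(CPM + 1). The genes named by rule were the 15 higher and 15 lower with the smallest p among those ordering both carcinomas on 1 side of both adenomas, with a mean of at least 1 CPM, plus list members past the threshold (none) and 11 chosen genes (among them Egfr, Hras, Nras, Tert, Cdkn1a, Mki67, Ppp1r9a, Ptpre, Ppp1r1a, and Ep300). The comparison and the 45 gene lists were chosen with earlier results of these data known, so counts over a list are descriptions. Tumor and liver of the same number are from 1 mouse. Over 15182 genes the correlation of their deviations from the group means was 0.18, 0.31, 0.25, and 0.26 for T-HCC941, T-HCA992, and the p21+/TertCi tumors of 981 and 984, and the fit blocked on the mouse was an alternative. The labels name separate animals as replicates. Some genes are not reported here, in the text or the figures. The scripts were tested on simulated counts.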

Additional observations from a re-analysis of the deposited data

Results flagged for a closer look

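In the group of 4 p21+/Tert livers, 1 library stood apart from the other 3 for 6 of 38 values, where chance flags about 1 in 20. For 4 genes the distance is that of a few reads against none: Cacna1b was at 0.106 CPM in liver NT_992, Rtn4r at 0.106 and Vmn2r96 at 0.0532 in the same liver, and Mir675 at 0.0641 in liver p_663, with 0 in the others. Liver NT_992 also had the lowest Syde2, at 4.95 CPM against 7.63 to 8.26. Tbx3 was lowest in liver p_663, at 37 CPM against 62.8 to 68.6. In Tbx3 and Syde2 both carcinomas still lay below every liver.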

How the results depend on the processing

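The carcinoma to adenoma comparison gave no call in any edgeR fit except 2 lower genes without T-HCC941, and the smallest adjusted p ran from 0.0245 to 0.681 over the edgeR settings. DESeq2 called 65 higher and 58 lower. DESeq2, other size factors, no filter, and leaving out any 1 liver but NT_992 moved 0 of 45 list medians beyond the spread (by up to 0.05), and the widest effects came from leaving out T-HCA992 (18 moved, by up to 3.03) and from the replicate block, which sets each tumor against the liver of its own mouse (27 moved, 13 with the other sign).

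Against the livers, the block gave 790 rising and 641 falling genes in the carcinomas and 144 and 14 in the adenomas. Leaving out 1 carcinoma gave 709 to 787 rising and 314 to 541 falling, and leaving out 1 adenoma gave 170 to 590 rising and 5 to 180 falling. DESeq2 called 1174 rising and 840 falling genes in the adenomas and 1804 and 1747 in the carcinomas. For the difference between the pairs, DESeq2 called 40 and 13 genes, and without the filter edgeR called 2 higher and 1 lower (C730036E19Rik 7.04, Cyp2c67 5.58, and Acpp -8.61, each with an adjusted p of 0.0374).

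Of the named genes, 637 values kept their side, 30 passed under another setting, and 13 turned sign, all in genes with small differences. With 1 tumor left out, Hras ranged from -0.12 to 0.56, Nras from -0.30 to 0.05, Ep300 from -0.34 to 0.13, Ppp1r9a from -1.35 (without T-HCC941) to 1.68 (without TCi-HCA984), and Mki67 from -1.08 (without TCi-HCA984) to 2.90 (without T-HCA992). Ep300 was 0.22 and Ppp1r9a -0.20 under the block, and Mki67 was 0.80 with genotype as a term. The cause was not tested. With 2 tumors a side, and 1 left when a tumor is dropped, a lone tumor is assumed to vary like the other groups, and genes below about 1 CPM rest on few reads.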

Other observations

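Several gene groups had members that rose against the livers in both classes, without an order between the classes. Of 18 angiogenesis genes 9 rose in the carcinomas and 8 in the adenomas (6 and 5 in every fit with 1 library left out, and 5 in the adenomas without T-HCA992), with a median carcinoma to adenoma difference of 0.02 (log2). Esm1, a marker of endothelial tip cells, measured 44.7, 70.5, 23.8, and 46.1 CPM in T-HCC941, TCi-HCC981, T-HCA992, and TCi-HCA984 against 0.253 to 8.39 in the livers. Angpt2, a ligand that loosens vessel walls, was the only gene of the 18 higher in both carcinomas than in both adenomas, and 3 were lower. It measured 17.2, 10.7, 3.4, and 5.46 CPM with livers at 0.297 to 1.41 (1.66, SE 0.53, adjusted p = 0.494, edgeR), and rose in both classes. Endothelial markers summed to 125, 224, 178, and 157 CPM against 53.1 to 159 in the livers, and their part in these values was not tested. Targets of p53 were similar, with 6 of 26 rising in the carcinomas and 8 in the adenomas (3 without T-HCA992). Btg2, which slows the cell cycle, measured 140.3, 154, 172, and 228 CPM against 11.6 to 40.9, and the death receptor Tnfrsf10b 13, 11.5, 17.3, and 10.8 against 0.384 to 1.06. Of 26 genes of migration and adhesion, 6 rose in the carcinomas (2 without T-HCC941, and 10 without liver L981_CI) and 8 in the adenomas (1 without T-HCA992, and 5 without any one of the livers p_961, p_663, and L984_CI). Itga6, a laminin receptor subunit, measured 58, 47.6, 70.5, and 34.5 CPM against 1.5 to 4.09 and rose in both (4.23 and 4.22). By its median level (log2(CPM + 1)) the migration and adhesion group stood at 0.42 in TCi-HCA984, within the liver range of -0.24 to 0.51. It lay above that range in T-HCC941, TCi-HCC981, and T-HCA992.

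In the amino acid stress response, 7 of 22 genes rose in each class, 6 of them in every fit with 1 library left out for the carcinomas and 1 for the adenomas, where the count was 1 without T-HCA992. With each tumor set against the liver of its own mouse, 7 rose in the carcinomas and 0 in the adenomas. Atf4, its transcription factor, was at 205, 225, 158, and 136 CPM, and Trib3, a pseudokinase that ATF4 induces, at 74.8, 82.5, 27.2, and 53 with livers at 7.02 to 25.8. Aldh1l2, a mitochondrial folate enzyme of the same program, had the opposite order, at 2.49, 1.68, 9.45, and 14.4 CPM. Of 15 Notch genes 4 were higher and 3 lower in both carcinomas. Jag1, a Notch ligand, was at 5.04, 8.45, 11.5, and 13 CPM with livers at 4.93 to 7.38. Among genes of iron and heme, Hamp, which encodes the iron hormone hepcidin, was at 71.2, 22.3, 97.1, and 569 CPM against 944 to 2423 in the livers (-2.83, SE 0.95, adjusted p = 0.504, edgeR).

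For the remaining groups the order of the levels was as follows, beside backgrounds of 18.9% higher and 21.4% lower in both carcinomas. Of 29 cytochromes P450 of drug and bile acid metabolism 1 was higher and 9 were lower, with a median of -0.71 that was -2.21 without T-HCC941. Of 18 hepatocyte transcription factors 1 was higher and 6 lower, of 11 Hedgehog genes 1 and 4, and of 20 acute phase genes 0 and 3. Of 9 B and plasma cell genes 3 were higher and none lower. Of 26 glycolysis genes 5 were higher and 4 lower, of 16 phosphatase genes 3 and 3, of 16 periportal genes 2 and 1, of 19 secreted hepatocyte proteins 2 and 2, of 13 endothelial genes 1 and 1, and of 13 cell cycle inhibitors 1 and 2. None was higher among 21 cholesterol, 13 stellate cell, 20 S phase, and 9 telomerase genes, and 2, 2, 0, and 1 of these were lower.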
